A study of Phyllostachys violascens with 16 samples.

Results

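Dehydrins are small, hydrophilic late embryogenesis abundant (LEA) proteins that stay largely unfolded in solution. They bind water and membrane surfaces, and in cereals and other grasses their genes are well known for induction by cold, drying and the hormone abscisic acid. Transcription factors of the CBF/DREB group and bZIP factors of the abscisic acid pathway are the textbook activators of such genes. The 2 genes described here are PH02Gene07646, whose best database hit is dehydrin DHN3 of Setaria italica, and PH02Gene07648, whose best hit is a dehydrin DHN1-like protein of Panicum hallii. They are called DHN3 and DHN1-like below. They were picked by identifier from the 50936 genes of the deposited table, with their rise during storage already known. Their levels over time are therefore given as a description, without a test.

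The samples were segments of about 10 cm from the middle of Lei bamboo spring shoots at a height of 30 to 40 cm (Phyllostachys violascens, a bamboo grown as a vegetable). Groups of 4 libraries each were taken at the start (0d) and after 2 days (2d), 6 days (6d) and 20 days (20d) at 4 °C in polyethylene bags at 60 to 70% humidity. Each library pooled 6 shoots, and 30 shoots were kept together for each of the 4 biological repeats. The 0d libraries are shared by every comparison against 0d. All stored groups were both cold and later than 0d, so cold cannot be told apart from time since cutting or from packing. No further treatment, genotype or temperature is in the 16 libraries. In pooled segments a change in the share of a cell type and a change in RNA per cell cannot be told apart either.

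Libraries held 51.7 to 64.9 M deposited counts, and 22723 to 25819 genes had at least 1 FPKM in a library (fragments per kilobase of gene and per M fragments, the authors' level scaled for length and depth). Markers were used to check the labelled tissue. The summed FPKM of 39 knotted-like and WUSCHEL-related homeobox genes, known from meristems, was 446 to 499 over the stored libraries and 421 to 436 at 0d, with 13 to 16 of the 39 at 0 in all libraries of a time. That of 12 vascular genes (class III homeobox-leucine zipper genes among them) was 219 to 257 in storage and 311 to 319 at 0d, with 2 to 3 of the 12 at 0. That of 15 chlorophyll a-b binding protein genes, antenna proteins of green tissue, was 304 to 319 at 0d, then 13.3 to 13.8 at 2d, 14.5 to 17.03 at 6d and later 1.60 to 2.50 at 20d, and 3 to 6 of the 15 were at 0 in all libraries of a time. The antenna genes were thus lower at every stored time. The sum of the meristem list hides genes that went both ways. Of its 19 tested genes, 2, 3 and 3 were higher and 3, 8 and 4 lower at 2d, 6d and 20d against 0d, by the calls defined below. Their median log2 change at 6d was -0.36. Of all tested genes, 31.1% were called either way at 2d. At 6d 16.8% were higher and 21.6% lower, beside 15.8% and 42.1% of the meristem list. At 20d 19.5% of all were higher and 24.5% lower. Of 8 tested genes of the vascular list, 1, 0 and 0 were higher and 0, 3 and 4 lower at 2d, 6d and 20d against 0d. Their median log2 changes were -0.07, -0.45 and -0.55, so the lower FPKM sum at 2d came without a gene called lower. The part of any of these lists in the values below was not tested.

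DHN3 had no counts at 0d and was higher at each later time. It had 0 counts in all 4 libraries at 0d. With a floor of 3 fragments over the group, this allows a level of up to 0.0586 FPKM, counting error only. At 2d the libraries held 0.407, 0.353, 0.170 and 0.905 FPKM. These are few fragments, since the deposited counts of 19, 16, 10 and 42 correspond to about 4 counts a fragment. The 4 libraries at 2d were all above 0, but replicate 4 alone carried 42 of the 87 counts.

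At 6d DHN3 stood at 7.06, 6.97, 6.85 and 7.35 FPKM, and at 20d at 23.6, 23.01, 23.4 and 24.3 FPKM. No library of a later time overlapped one of an earlier time. The mean was 0.459 ± 0.315 FPKM at 2d, then 7.05 ± 0.213 at 6d and later 23.6 ± 0.530 at 20d (SD, n = 4 each). Set over the floor of 0.0586 FPKM at 0d, these means were at least 7.84-fold higher at 2d, then at least 120-fold higher at 6d and at least 402-fold higher at 20d. The same floor in counts with TMM scaling of library size gave 9.43-, 137- and 502-fold, so the bounds depend on the scaling. Between stored times the log2 change was 3.84 (SE 0.26, n = 4 each) at 6d against 2d and 1.88 (SE 0.20) at 20d against 6d. Log2 changes here come from a fit in edgeR over all tested genes with TMM scaling, so they differ a little from ratios of FPKM.

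DHN1-like was already present at 0d, had the higher FPKM of the 2 genes at every time, and was highest at 6d. At 0d the libraries had 3.57, 2.98, 3.77 and 4.29 FPKM, and at 2d 27.2, 27.9, 26.6 and 31.7 FPKM. At 6d they had 248, 225, 252 and 251 FPKM, and at 20d 45.5, 46.4, 50.4 and 49.3 FPKM. The 4 times did not overlap. How many of all tested genes have such separate times, as DHN3 does too, was not counted. Differences between times were common. An unadjusted p below 0.05 in edgeR was found for 81.0% of all tested genes at 2d, 85.2% at 6d and 86.4% at 20d against 0d. The level at 20d lay below every library at 6d and above every library at 2d.

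The mean of DHN1-like was 3.65 ± 0.543 FPKM at 0d, then 28.4 ± 2.29 at 2d, 244 ± 12.9 at 6d and later 47.9 ± 2.29 at 20d (SD, n = 4 each). Against 0d the log2 change was 3.20 (SE 0.08) at 2d, then 6.23 (SE 0.08) at 6d and later 4.02 (SE 0.08) at 20d. At 6d against 2d it was 3.03 (SE 0.07), and at 20d against 6d it was -2.21 (SE 0.06). Ranked by mean FPKM among the 50936 genes, DHN1-like stood at rank 19164 at 0d, then 4251 at 2d, 154 at 6d and later 2235 at 20d. DHN3 stood at rank 26334 at 2d, then 13033 at 6d and later 5122 at 20d.

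**Figure D1:**
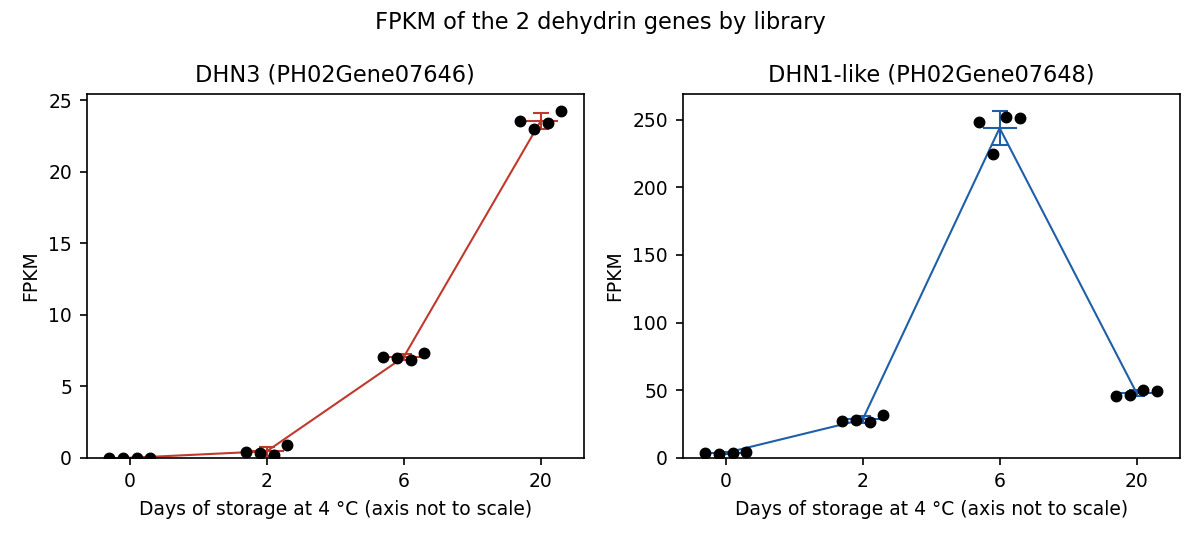
FPKM of DHN3 (left) and DHN1-like (right) in each library at 0, 2, 6 and 20 days; points are libraries, lines join the means and bars are the SD (n = 4). DHN3 is highest at 20d, at 23.01 to 24.3 FPKM, and DHN1-like at 6d, at 225 to 252 FPKM; the vertical scales of the panels differ.

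Both genes rose from 0d to 2d, and the time of their highest level differed. In both, every 2d library was above every 0d library, a separation whose share among all tested genes was not counted. Onset itself can be placed in this interval for DHN3 only, since DHN1-like already had 1020 counts at 0d. The level of DHN3 at 2d rests on 87 counts, 42 of them in replicate 4. At 2d DHN1-like had reached 11.6% of its own highest mean and DHN3 1.95% of its own. At 6d DHN1-like was at its highest mean, and DHN3 had 29.9% of its own. At 20d DHN3 was at its highest mean, and DHN1-like had 19.6% of the mean it had at 6d.

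The balance between the 2 genes changed accordingly. Within a library, FPKM of DHN1-like divided by that of DHN3 was 66.8, 79.2, 156 and 35.01 at 2d, where DHN3 had few fragments. At 6d the ratio was 35.2, 32.2, 36.8 and 34.2, and at 20d 1.93, 2.02, 2.15 and 2.03. The ratios at 20d were all below those at 6d, with means of 2.03 ± 0.0907 and 34.6 ± 1.89 (SD, n = 4 each). At 0d only a bound can be given: the mean of DHN1-like was at least 62.4-fold above the floor of DHN3. DHN1-like was the more abundant of the 2 per length in all 16 libraries.

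**Figure D2:**
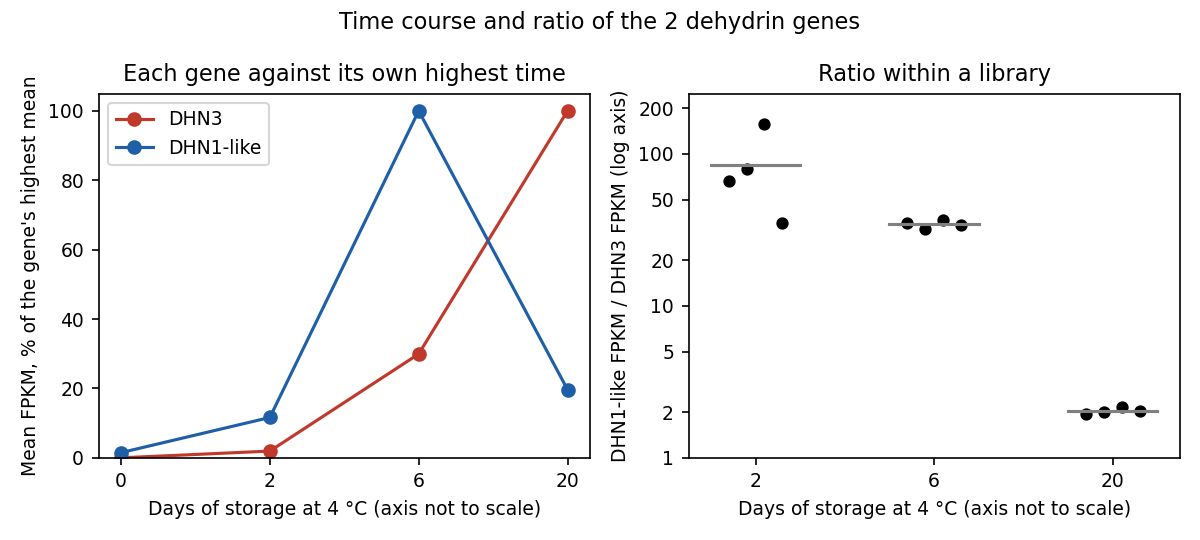
Left, mean FPKM of each gene at 0, 2, 6 and 20 days as a percentage of its own highest mean; right, DHN1-like FPKM divided by DHN3 FPKM in each library on a log axis, with the group mean as a line (0d is left out because DHN3 had 0 counts). DHN3 was at 29.9% at 6d and DHN1-like at 19.6% at 20d, and the ratio was near 2 in the 4 libraries at 20d.

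The table lists both genes on the minus strand of scaffold 13, DHN1-like at 30367302 to 30368502 and DHN3 at 30469947 to 30470837, spans of 1201 and 891 bases. The genome build is not given in the sources used here, and exons were not analysed here. The pair is separated by 101444 bases, with 1 listed gene between them, PH02Gene07647, which had 0 FPKM in all 16 libraries. Both carry the same 4 gene ontology terms: cytosol, response to water deprivation, cold acclimation, and response to abscisic acid. The same set of terms is on 5 genes of the table in all, and the cold acclimation term on 60.

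Around the pair, the share of genes expressed was close to that of the whole table. Of the 11 other genes listed between them or within 5 places on either side, 5 had 0 FPKM in every library, 1 had a mean FPKM below 1, and 5 (45.5%) were tested, beside 49.0% of all genes. Calls required an edgeR adjusted p (Benjamini-Hochberg) below 0.05 and a log2 change of 1 or more in either direction. At 2d against 0d, 1 of the 5 was called, where 31.1% of the 24944 tested genes were called in either direction. This was serine hydroxymethyltransferase 4 (PH02Gene07644), an enzyme of serine and glycine interconversion, at 93.0 ± 2.57 FPKM at 2d and 39.1 ± 1.62 FPKM at 0d (log2 change 1.501, SE 0.03, edgeR adjusted p = 9.02e-23).

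At 6d and 20d against 0d, and at 20d against 6d, 0 of the 5 neighbours were called by edgeR, where 38.4%, 44.0% and 26.9% of tested genes were called in either direction. Adenosylhomocysteinase (PH02Gene07645), which recycles the by-product of methylation and lies next to DHN3, had 31.8 ± 1.68 FPKM at 20d and 79.1 ± 2.91 FPKM at 0d, a log2 change of -0.999 (SE 0.04, edgeR adjusted p = 2.76e-18), just short of the limit. SKP1-like protein 1A (PH02Gene30881), a subunit of ubiquitin ligases, had 117 ± 4.53 FPKM at 20d and 287 ± 2.44 FPKM at 0d, a log2 change of -0.98 (SE 0.04, edgeR adjusted p = 9.74e-18). Both were called lower at 20d by DESeq2 and under RLE and total-count scaling, among others. The gene for RNA polymerase sigma factor sigB (PH02Gene07649), next to DHN1-like, had log2 changes of 0.07 (SE 0.07) at 6d and -0.08 (SE 0.07) at 20d against 0d. Serine hydroxymethyltransferase 4 (PH02Gene07644) was just below the limit in the other direction, with 67.7 ± 2.14 FPKM at 6d and 59.8 ± 1.73 FPKM at 20d, against 39.1 ± 1.62 FPKM at 0d. Its log2 changes were 0.97 (SE 0.03, edgeR adjusted p = 5.1e-19) at 6d and 0.93 (SE 0.03, edgeR adjusted p = 9.34e-19) at 20d. The remaining tested gene (PH02Gene07650, a hypothetical protein) stayed between 1.44 and 2.39 FPKM in its means. Without the limit on size, 3 of the 5 had an unadjusted p below 0.05 in edgeR at 6d against 0d, 4 at 20d against 0d and 4 at 20d against 6d, beside 85.2%, 86.4% and 78.1% of all tested genes. DESeq2 called 0, 2 and 0 in these comparisons.

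**Figure D3:**
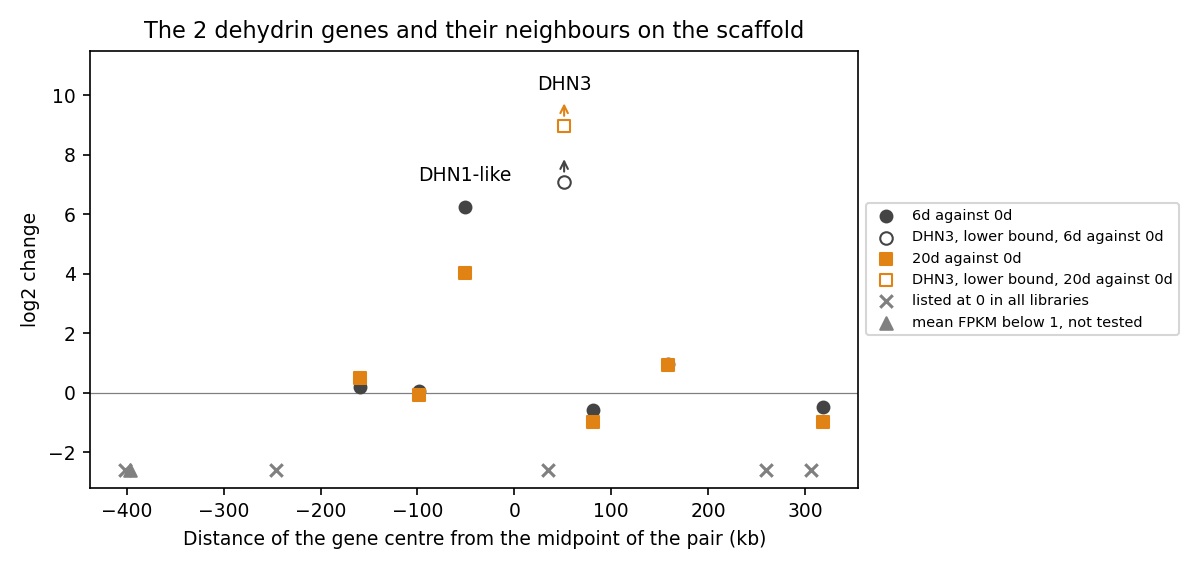
Log2 change at 6d (circles) and 20d (squares) against 0d for the 2 dehydrin genes and the tested genes around them, by distance in kb from the midpoint of the pair; open symbols with arrows are lower bounds for DHN3 under TMM scaling, crosses mark genes at 0 in all libraries and the triangle a gene with a mean FPKM below 1. The 5 tested neighbours lie between -0.999 and 0.967, and DHN1-like is at 6.23 (6d) and 4.02 (20d).

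The dehydrin family as a whole holds 7 genes by description, 5 of them besides the pair, on scaffolds 2, 3, 14, 17 and 22. Of these 5, 3 were expressed high enough to be tested. The cold acclimation protein WCOR410c gene (PH02Gene13412), named after an acidic wheat dehydrin, was also highest at 6d, with 92.1 ± 3.11 FPKM at 0d, then 63.5 ± 1.75 at 2d, 237 ± 6.58 at 6d and later 93.9 ± 3.84 at 20d (SD, n = 4 each). It was higher at 6d against 0d (log2 change 1.54, SE 0.03, edgeR adjusted p = 9.56e-24) and lower at 20d against 6d (-1.199, SE 0.03, edgeR adjusted p = 2.89e-21).

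Dehydrin COR410 (PH02Gene01531) began high, with 50.5 ± 1.65 FPKM at 0d, then 18.4 ± 1.94 at 2d, 45.9 ± 1.03 at 6d and later 8.33 ± 0.546 at 20d. It fell at 2d against 0d (-1.202, SE 0.06, edgeR adjusted p = 4.78e-16), rose at 6d against 2d (1.24, SE 0.06, edgeR adjusted p = 7.07e-16), where 6.94% of tested genes were called higher, and fell at 20d against 6d (-2.32, SE 0.06, edgeR adjusted p = 3.25e-21). With DHN1-like and WCOR410c it shares a lower level at 20d than at 6d, and its mean FPKM at 6d was 5.51 times that at 20d, against 5.09 times for DHN1-like and 2.53 times for WCOR410c.

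A further gene with the hit dehydrin DHN3, PH02Gene11487 on scaffold 2, had 169 ± 11.4 FPKM at 0d, then 137 ± 2.34 at 2d, 146 ± 5.03 at 6d and later 174 ± 7.23 at 20d, with log2 changes of -0.06, -0.04 and 0.36 against 0d (SE 0.04 each). It was called in none of the 5 comparisons. The Rab25-like gene (PH02Gene06539) did not exceed 0.713 FPKM, and PH02Gene29612 was at 0 throughout. Reads from closely related copies could be split between genes in the authors' estimates, and this was not tested.

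Summed over the 7 genes, dehydrin FPKM was 316 ± 13.2 at 0d, then 247 ± 3.46 at 2d, 680 ± 15.4 at 6d and later 348 ± 9.82 at 20d (SD, n = 4 each). DHN1-like made up 1.16% ± 0.169 of this sum at 0d, then 11.46% ± 0.921 at 2d, 35.8% ± 1.17 at 6d and later 13.8% ± 0.474 at 20d. DHN3 made up 0.185% ± 0.127 at 2d, then 1.04% ± 0.0279 at 6d and later 6.77% ± 0.204 at 20d. In FPKM, the sum at 20d was thus close to that at 0d but held a different mixture, with more DHN1-like and DHN3 and less COR410. This closeness depends on the scaling, since FPKM is not TMM-scaled. In the edgeR fit with TMM, log2 changes at 20d against 0d were 0.34 (SE 0.03) for WCOR410c and 0.36 (SE 0.04) for PH02Gene11487. For COR410 it was -2.28 (SE 0.06). The sum was not computed under TMM scaling.

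**Figure D4:**
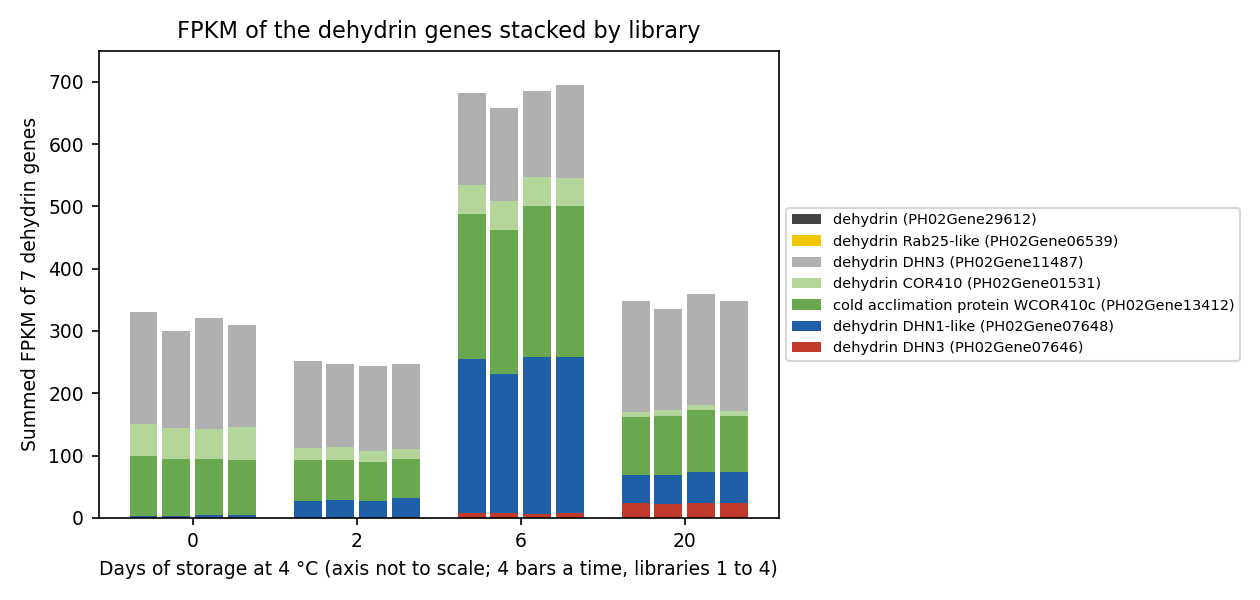
FPKM of the 7 dehydrin genes stacked for each of the 16 libraries, 4 at each time. The sum is highest at 6d, at 659 to 695 FPKM, where DHN1-like makes up 34.1 to 36.7% of it.

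The wider cold and desiccation pathway was described through 9 lists of genes, matched on the descriptions. Leaving out the pair, they held 178 genes, of which 96 were tested. At 6d against 0d 27 rose (28.1%) and 18 fell (18.8%), beside 16.8% higher and 21.6% lower among all tested genes. At 20d against 0d 23 rose (23.96%) and 19 fell (19.8%), beside 19.5% and 24.5% of all. At 20d against 6d 12 rose (12.5%) and 16 fell (16.7%), beside 12.7% and 14.2% of all. The median log2 change of the 96 genes was 0.10, 0.31 and -0.11 in these comparisons, against -0.02, 0.02 and -0.001 over all tested genes. Scaling moved the balance of all calls. At 6d against 0d 43.7% of called genes were higher under TMM scaling, 33.6% under total-count scaling and 32.8% in limma on log2(FPKM + 1). At 20d against 0d these shares were 44.3%, 31.0% and 31.2%. Total-count scaling shifted the median log2 change over all genes to -0.21 at 6d and -0.30 at 20d.

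Counts of the single lists below stand beside 16.8% higher and 21.6% lower of all tested genes at 6d against 0d. At 20d against 0d these shares were 19.5% and 24.5%. Among upstream factors, changes went both ways. CBF/DREB genes, whose products bind the drought- and cold-responsive element of target promoters, had 2 members higher and 1 lower of 9 at 6d against 0d (median log2 change 0.64), and 2 higher and 0 lower at 20d (0.48). The 2 higher at 6d became 1 without 6d replicate 3, 1 in limma on log2(FPKM + 1) or with a minimum of 5 FPKM, and 0 in limma on log2(FPKM + 5). At 20d, total-count scaling gave 1 higher and 1 lower, and 1 was lower in DESeq2 and without 0d replicate 1, 0d replicate 4 or 20d replicate 1. The 2 higher at 20d became 1 with a minimum of 5 FPKM and 0 in limma with either constant. The list lets in 1 gene for a CBF1 interacting corepressor. DREB1 (PH02Gene39376) rose to 12.5 ± 0.352 FPKM at 6d, against 5.30 ± 0.223 at 0d (log2 change 1.41, SE 0.07, edgeR adjusted p = 6.03e-16), and was at 9.82 ± 0.113 FPKM at 20d (1.202, SE 0.07). At 20d it was below the limit under total-count scaling (0.88) and in limma on log2(FPKM + 1) (0.78) and log2(FPKM + 5) (0.53). On log2(FPKM + 5) it was also below the limit at 6d (0.76). Regulators upstream of CBF numbered 17 tested genes, the WD40 protein HOS15 among them, with 1 higher and 3 lower at 6d and 2 higher and 3 lower at 20d. ICE1 (PH02Gene07293), a bHLH activator of CBF genes in Arabidopsis, had 138 ± 4.06 FPKM at 20d and 46.3 ± 1.52 FPKM at 0d (1.89, SE 0.04, edgeR adjusted p = 1.89e-24). A calmodulin-binding transcription activator 4 gene (PH02Gene16049) had 7.38 ± 0.235 FPKM at 6d and 27.5 ± 1.2 FPKM at 0d (-1.72, SE 0.04).

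Most tested genes of abscisic acid metabolism were lower at 20d than at 0d. Of 6 tested, 1 was higher and 3 lower at 6d against 0d (median -1.50), and 1 was higher and 5 lower at 20d (median -1.79). Total-count scaling gave 5 lower at 6d. The list holds enzymes of synthesis and of breakdown, and both were among those lower at 20d. The tested abscisic acid 8'-hydroxylase genes, of breakdown, were all lower (PH02Gene03757, PH02Gene23492 and PH02Gene27952, log2 changes -1.42, -2.12 and -1.47). The 1 higher was a zeaxanthin epoxidase gene (PH02Gene42507, 1.53), of synthesis. The net effect on the hormone was not tested. A 9-cis-epoxycarotenoid dioxygenase gene (PH02Gene49504), for the committed step of abscisic acid synthesis, had 6.40 ± 0.623 FPKM at 6d and 2.31 ± 0.413 at 20d, against 29.7 ± 1.17 at 0d (log2 changes -2.04, SE 0.09, and -3.36, SE 0.09). Of 30 signalling genes 7 were higher and 8 lower at 6d, and 3 higher and 7 lower at 20d, where total-count scaling gave 12 lower and limma 0 higher. Among the kinases of this pathway, SAPK10 (PH02Gene10453) rose to 44.2 ± 1.12 FPKM at 6d, against 15.6 ± 0.319 at 0d (1.67, SE 0.04), and SAPK4 (PH02Gene22312) fell to 24.7 ± 0.985, against 84.1 ± 2.88 at 0d (-1.59, SE 0.04).

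Among other protective proteins, 5 genes on the LEA list were tested, with 2 higher and 0 lower at 6d and 3 higher and 1 lower at 20d, all against 0d. The list lets in by name a desiccation-related and a seed maturation protein gene, whose hits do not name an LEA protein. The desiccation-related protein PCC13-62-like gene (PH02Gene47419), named after a protein of a resurrection plant, had 2.30 ± 0.380 FPKM at 0d, then 23.3 ± 2.68 at 2d, 116 ± 3.97 at 6d and later 22.1 ± 2.27 at 20d. Its log2 changes were 5.83 (SE 0.11, edgeR adjusted p = 1.88e-17) at 6d against 0d and -2.26 (SE 0.09, edgeR adjusted p = 4.45e-13) at 20d against 6d, beside 6.23 and -2.21 for DHN1-like. Seed maturation protein PM37 (PH02Gene06685) had 68.5 ± 1.75 FPKM at 20d and 186 ± 6.71 FPKM at 0d (-1.13, SE 0.03). Of 10 tested genes on the cold-regulated list 3 rose and 3 fell at 6d, and 3 rose and 1 fell at 20d. Most of the 10 are kinases that the list lets in by name, with the hit cold-responsive protein kinase 1 or 1-like. All that rose at either time were such kinases, and no other gene of this list was called higher than at 0d. The 1 that fell at 20d became 2 without 0d replicate 2 or 20d replicate 1, in DESeq2, and under RLE and total-count scaling. A COR413-type inner membrane protein gene (PH02Gene04238) had 24.04 ± 1.33 FPKM at 6d and 85.6 ± 4.21 FPKM at 0d (-1.66, SE 0.07). A cold-responsive protein kinase 1 gene (PH02Gene46891) had 25.7 ± 0.945 FPKM at 20d and 6.80 ± 0.625 at 0d (2.23, SE 0.07).

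Raffinose-family sugars and proline protect cells from drying and cold in many plants. In synthesis of raffinose-family sugars, 6 of 9 rose and 0 fell at 6d against 0d (median 1.84), and 6 rose and 1 fell at 20d (median 1.59). The 6 at 20d became 3 in limma with either constant, and the 6 at 6d became 3 on log2(FPKM + 5). The 1 that fell became 0 with a minimum of 5 FPKM or on log2(FPKM + 5). Galactinol-sucrose galactosyltransferase 6 (PH02Gene11640) had 86.1 ± 1.70 FPKM at 6d and 52.2 ± 1.34 at 20d, against 9.38 ± 0.530 at 0d (log2 changes 3.37, SE 0.03, and 2.79, SE 0.03). In proline synthesis and breakdown 4 of 7 rose and 0 fell at 6d, and 3 rose and 0 fell at 20d. Under total-count scaling 1 fell at 6d and 2 at 20d, and in limma on log2(FPKM + 1) 1 fell at 20d. The 4 that rose at 6d became 2 in limma with either constant. Those that rose include a gene of breakdown, proline dehydrogenase 2 (PH02Gene02957), with 34.2 ± 1.65 FPKM at 6d and 15.1 ± 1.15 at 20d, against 1.07 ± 0.286 at 0d, and a gene of synthesis, pyrroline-5-carboxylate reductase (PH02Gene37886), with 23.2 ± 0.549 FPKM at 6d and 12.9 ± 1.15 at 0d (1.02, SE 0.07, but 0.83 under total-count scaling and 0.98 without 0d replicate 4, both below the limit).

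When calls are required at both steps, the 2 courses of the dehydrin pair are each uncommon among tested genes. A rise at 6d against 0d followed by a fall at 20d against 6d, as in DHN1-like, was called in 687 genes, 2.75% of those tested, and in 9 of the 96 pathway genes (9.38%). A rise at 6d against 0d followed by a further rise at 20d against 6d, as in DHN3, was called in 607 genes, 2.43% of those tested, and in 3 of the 96 (3.13%). The 9 included WCOR410c, PCC13-62-like, proline dehydrogenase 2 and a pair of genes (PH02Gene05570 and PH02Gene15491) named after ABSCISIC ACID-INSENSITIVE 5, a bZIP factor of abscisic acid responses, and the 3 included a late embryogenesis abundant gene (PH02Gene10877) at 0.296 ± 0.0528 FPKM at 0d, then 0.517 ± 0.276 at 2d, 2.54 ± 0.195 at 6d and later 5.37 ± 0.486 at 20d. Both patterns leave out the level at 2d. Of the 9, PH02Gene05570 and PH02Gene15491 were highest at 2d, at 39.6 ± 1.70 and 6.26 ± 0.291 FPKM. DREB1.2 (PH02Gene16156) and pyrroline-5-carboxylate reductase (PH02Gene37886) were also highest at 2d. These genes thus do not share the highest level at 6d of DHN1-like. A highest mean FPKM at 6d, without regard to calls, was more common. It was found in 4999 of the tested genes (20.0%) and in 26 of the 96 pathway genes (27.1%). The pair chose these patterns, so the counts describe how common they are and test nothing.

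**Figure D5:**
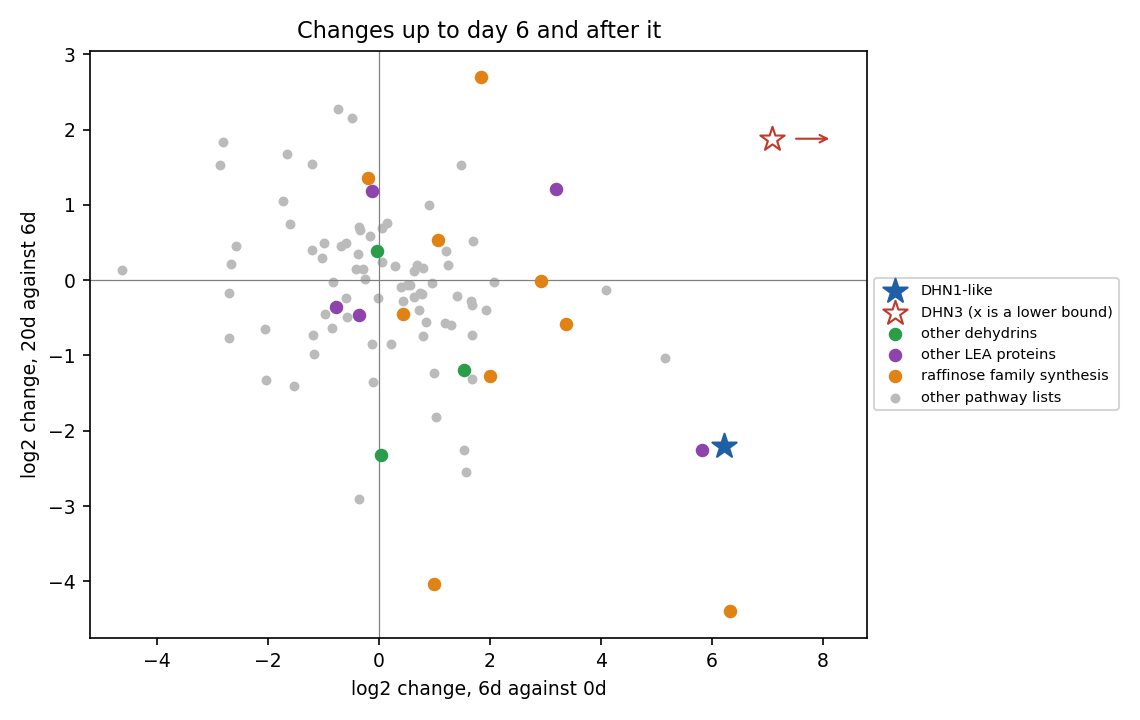
Log2 change at 6d against 0d (x) and at 20d against 6d (y) for the 2 dehydrin genes (stars) and the 96 tested genes of the pathway lists (points). DHN1-like lies at 6.23 and -2.21, close to the desiccation-related gene at 5.83 and -2.26, and DHN3 lies at 1.88 on the vertical axis with its horizontal value a lower bound under TMM scaling.

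Likeness of time course was measured by Pearson's r of log2(FPKM + 1) over the 16 libraries, which mostly reflects the 4 time means and is given as a description. For DHN1-like the 5 most similar of 24943 genes had r of 0.994 to 0.998. They were a small G protein signaling modulator 1 gene (PH02Gene13640), a 26S proteasome regulatory subunit 2 homolog (PH02Gene24762), alpha-glucan water dikinase (PH02Gene37432), an enzyme that primes starch for breakdown, and 2 genes with uninformative hits (PH02Gene30948 and PH02Gene13584). For DHN3 they had r of 0.997 to 0.998 and were plastid ribosomal protein S13 (PH02Gene29986), a large subunit of glucose-1-phosphate adenylyltransferase (PH02Gene44838), an enzyme of starch synthesis, a polygalacturonase (PH02Gene43221), and 2 genes with uninformative hits (PH02Gene36491 and PH02Gene29194). Between DHN3 and DHN1-like themselves r was 0.672, which placed DHN1-like at rank 4648 for DHN3 and DHN3 at rank 4100 for DHN1-like.

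Genes alike in course could differ in size of change. The small G protein signaling modulator gene (PH02Gene13640) ran at 8.08 ± 0.200 FPKM at 0d, then 14.6 ± 0.407 at 2d, 27.7 ± 1.102 at 6d and later 16.7 ± 0.299 at 20d, a far shallower course than that of DHN1-like. The polygalacturonase gene (PH02Gene43221) ran at 0.01003 ± 0.0201 FPKM at 0d, then 0.231 ± 0.0891 at 2d, 9.19 ± 0.333 at 6d and later 29.9 ± 1.37 at 20d, beside 0, 0.459, 7.05 and 23.6 FPKM for DHN3 at the same times.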

How the data were processed

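The authors deposited 1 table with, per the file headers, an FPKM and a count for each gene in each library; an FPKM of 0 is written as 0.0001 and was read as 0. The deposited values named counts are estimated counts without scaling. All are whole, 4 is the commonest above 0 and 35.2% of those from 1 to 19 are multiples of 4, so a fragment was taken as 4 counts. No aligner or counting tool is named, and the build is likewise not given in the sources used here. Names are the table's best-hit descriptions, present for 49347 genes, and name the closest described protein, not a proven function.

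Genes whose mean FPKM reached 1 (24944 genes) entered a quasi-likelihood fit in edgeR 4.0.16 under R 4.3.3, with TMM scaling and the 4 times as groups, and p-values were adjusted over all of them by Benjamini-Hochberg. A call needed an adjusted p below 0.05 and an absolute log2 change of at least 1. The fitting was tested on simulated data. DHN3, with 0 counts at 0d, was given a floor of 3 fragments (12 counts) over that group. Floors cover counting error only, since the labels name no molecular identifiers. The repeats are labelled biological. The members, lists and tests were chosen with earlier results of these data known. Named were the pair, genes up to 5 places away, all dehydrins, in each other list the called gene with the highest mean FPKM at 6d and at 20d against 0d, and the 5 genes most like each member; other genes named were chosen after their values were seen. Alternatives were DESeq2 1.42.0, limma 3.58.1 on log2(FPKM + 1) and log2(FPKM + 5), RLE and total-count scaling, other FPKM minimums, a replicate block and leaving out each library.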

Additional observations from a re-analysis of the deposited data

Results flagged for a closer look

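In 4 of 25 sets of 4 libraries examined for dehydrin genes and the ratio of the pair, 1 library stood apart from the other 3 by a gap that was large against the whole range (Dixon's limit for 4 values; the gap share is that gap over the range); chance alone gives about 1 in 20 sets. DHN1-like (PH02Gene07648) at 6d had a gap share of 0.867, from replicate 2 at 225 FPKM beside 248, 252 and 251 FPKM in the others. Without 6d replicate 2 its log2 change was 6.27 at 6d against 0d and -2.25 at 20d against 6d. PH02Gene11487, the other gene with the hit DHN3, had a gap share of 0.835 at 20d, from replicate 2 at 164 FPKM beside 176 to 179 FPKM. The Rab25-like gene (PH02Gene06539) had a gap share of 1 at 6d and at 20d, since 1 library of each time held its only counts, at 0.155 and 0.0694 FPKM. With the other 3 libraries at 0 the share is 1 by construction, so the rate of 1 in 20 does not apply to these sets.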

How the results depend on the processing

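Of 460 values of the main results under the alternatives, 400 stayed within the spread between libraries or within 1.5 times the count, 60 moved, and 0 reversed. The lower bound of DHN3 over 0d with scaled counts was 120 at 6d and 402 at 20d under total-count scaling, 143 and 520 with no minimum on FPKM, 128 and 470 with a minimum of 5, and 491 at 20d under RLE scaling. Leaving out 1 library it ranged from 99.98 to 138 at 6d and from 367 to 506 at 20d; DESeq2, limma and the block give no such bound. Total-count scaling gave DHN3 1.75 at 20d against 6d, and DHN1-like 2.95 at 2d and 3.70 at 20d against 0d and -2.34 at 20d against 6d. Limma on log2(FPKM + 1) gave DHN3 2.49 at 6d against 2d and 1.61 at 20d against 6d, and DHN1-like 2.66, 5.72 and 3.40 against 0d and -2.32 at 20d against 6d. On log2(FPKM + 5), whose larger constant shrinks low values, these were 1.14 and 1.24, and 1.95, 4.85 and 2.61. Of the 5 neighbours 2 were called at 20d against 0d in DESeq2, limma with either constant, under RLE and total-count scaling and with a minimum of 5, and 0 to 1 without a library; 1 was called at 6d with no minimum. Genes called at 6d against 0d, 9579, were 14382 with no minimum, 5132 with a minimum of 5 and 3808 on log2(FPKM + 5). At 20d against 0d, 10969 became 6237 and 5221 under the last pair, and at 20d against 6d, 6708 became 3449 and 1859. Pathway genes called higher on log2(FPKM + 5) were 12 at 6d against 0d, 10 at 20d against 0d and 3 at 20d against 6d, and lower 10 at 6d against 0d and 8 at 20d against 6d. On log2(FPKM + 1) they were 13 higher at 20d against 0d and 7 at 20d against 6d. With a minimum of 5, fewer genes are tested, and 11 were lower at 6d, 9 at 20d against 0d, and 7 higher and 10 lower at 20d against 6d. Under total-count scaling 30 were lower at 20d against 0d. Apart from these constructions, the cause was not tested.

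Libraries with the same number did not deviate together: over 24 same-numbered pairs the correlation of deviations was -0.0409 to 0.0783, with 0 above 0.1, and 6 of 16 libraries correlated best with their own number. With the replicate block the log2 change of DHN1-like at 6d against 0d was 6.23 and that of DHN3 at 20d against 6d 1.88, and 9572 genes were called at 6d against 0d.

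DHN3 at 2d rests on 87 counts; when a library was left out its bound at 2d over 0d was 6.44 to 11.6, and its log2 change at 6d against 2d was 3.55 to 4.39. Of 864 alternative values of the 36 counts of the single lists against 0d, 52 moved by over 1.5 times, 34 of them in limma or with a minimum of 5.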

Other observations

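Among genes of raffinose-family synthesis 2 differed in the time of their highest mean, 6d in one and 20d in the other; they were chosen after their values were seen. Galactinol-sucrose galactosyltransferase 1 (PH02Gene07569) was at 0.606 ± 0.217 FPKM at 0d, then 1.56 ± 0.159 at 2d, 42.9 ± 1.52 at 6d and later 1.84 ± 0.132 at 20d (SD, n = 4 each), rising at 6d against 0d (log2 change 6.33, SE 0.14) and falling at 20d against 6d (-4.40, SE 0.12, edgeR adjusted p = 6.30e-15). Galactinol-sucrose galactosyltransferase 2 (PH02Gene48920) was at 2.16 ± 0.250 FPKM at 0d, then 1.26 ± 0.240 at 2d, 6.84 ± 0.870 at 6d and later 40.2 ± 1.64 at 20d, rising at 20d against 6d (2.69, SE 0.10, edgeR adjusted p = 4.75e-14). DHN1-like was likewise highest at 6d and DHN3 at 20d.

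DREB1A (PH02Gene01977), a member of the group that activates dehydrin genes in other plants, was at 5.39 ± 0.812 FPKM at 0d, then 0.0138 ± 0.0276 at 2d, 0.674 ± 0.0732 at 6d and later 2.21 ± 0.362 at 20d. It was thus lowest at 2d. DREB1.2 (PH02Gene16156) was highest at 2d, at 3.14 ± 0.380 FPKM, against 0.343 ± 0.237 at 0d (log2 change 3.40, SE 0.58). So was a DREB 2C-like gene (PH02Gene41094), at 123 ± 2.21 FPKM against 44.1 ± 0.705 at 0d (1.73, SE 0.04). Of 9 tested CBF/DREB genes 2 were higher and 2 lower at 2d against 0d, beside 31.1% of all tested genes called either way. These genes were named after their values were seen, and any part of them in the levels of the pair was not tested.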
